A study of Macaca mulatta with 6 samples.

Results

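The FOS, JUN and EGR immediate early factors were followed in cultured spermatogonial stem cells (SSCs) of the rhesus monkey with and without platelet-derived growth factor (PDGF). The 10 genes were chosen by name: FOS, FOSB, FOSL1 and FOSL2 of the FOS family, JUN, JUNB and JUND of the JUN family, and EGR1, EGR2 and EGR3 of the EGR family. Of these, 7 were among the 17795 genes of the count table, and all 7 passed the filter on low counts together with 11532 other genes. JUN, EGR1 and EGR3 were not analysed here, so the account below covers only a portion of each family. The SSC PDGF+ group comprised 3 bulk RNA sequencing libraries from SSCs grown in 3D hydrogel droplets with human PDGF, and SSC PDGF-, the control group, comprised 3 libraries from cultures without it. The study's culture methods describe a single SSC medium, which beside PDGF held serum, GDNF, EGF, basic FGF, LIF and Wnt3a, and do not state whether the controls differed from it in anything but PDGF. In each group the labels place replicate 1 in batch 1 and replicates 2 and 3 in batch 2. Donors, days in culture and the time between the last change of medium and harvest are not stated, nor whether replicates 2 and 3 were separate cultures, so the p-values measure the spread between these libraries, which may be technical.

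Immediate early genes are transcribed within minutes of a growth factor signal from factors already present in the cell, and their messenger RNAs are short-lived. Binding of PDGF to its receptor tyrosine kinases activates RAS and the kinases ERK and RSK. These kinases act on ternary complex factors, which sit with serum response factor on DNA elements called CArG boxes, and on CREB-type factors, which bind the cyclic AMP response element. FOS and JUN proteins pair through leucine zippers to form the transcription factor AP-1, while EGR proteins bind GC-rich DNA through zinc fingers. Among the FOS proteins, FOS and FOSB carry a strong activation domain, and FOSL1 (FRA-1) and FOSL2 (FRA-2) lack it and are made later and for longer.

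The upstream DNA is shown first. The 3 members that rose shared an arrangement there that the other 4 lacked in its exact letters, though FOSL1 held a near match. Each line gives the strand of transcription from 5′ to 3′ in the Mmul_10 assembly (RefSeq), with matches to the CArG box (CC, 6 bases of A or T, GG), to the core of the cyclic AMP response element (TGACG, or CGTCA on the other strand) and to TATAAA in capitals. For JUNB the stretch nearest to the start is given for contrast, as it held no CArG box.
EGR2, plus strand, chr9:75153999-75154098: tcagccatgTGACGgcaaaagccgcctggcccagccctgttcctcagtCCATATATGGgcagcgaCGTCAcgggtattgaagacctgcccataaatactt
FOS, plus strand, chr7:137394431-137394530: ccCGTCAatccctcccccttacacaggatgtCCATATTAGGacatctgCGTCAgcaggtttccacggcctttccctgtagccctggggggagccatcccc
FOSB, plus strand, chr19:45527365-45527464: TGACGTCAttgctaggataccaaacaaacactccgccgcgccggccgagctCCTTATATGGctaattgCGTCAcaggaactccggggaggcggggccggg
JUNB, plus strand, chr19:12369708-12369847: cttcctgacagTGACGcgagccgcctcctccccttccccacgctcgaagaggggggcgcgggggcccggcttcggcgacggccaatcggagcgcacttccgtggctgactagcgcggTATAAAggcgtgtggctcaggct

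In EGR2, FOS and FOSB, CGTCA followed the CArG box after exactly 7 bases. Over the 500 bases before the annotated start of 21094 genes, read on both strands, a CArG box occurred in 454 windows (2.15%) and the response element core in 29.4%. The CArG box with CGTCA 7 bases after it on the same strand occurred in 5 windows (0.024%), those of FOS, FOSB, EGR1, EGR2 and EGR3. This spacing was noticed in the members' own sequences after their values were known. The CArG box lay 82 to 73 bases before the annotated start in EGR2, with another at 382 to 373, and 269 to 260 bases before it in FOSB. In FOS it lay 469 to 460 bases before the annotated start, but the FOS model begins at the start codon, so its transcription start is not annotated. No exact CArG box was found in the windows of FOSL1, FOSL2, JUNB and JUND. FOSL1, which was not called, held CCATGTATGG, which departs from the box by a single G, and CGTCA followed it after 7 bases. The arrangement therefore separates the called members from the others only in its strict form. A match to TGANTCA, the AP-1 site, occurred in 10.5% of windows and among the members' windows in that of FOSL2, 418 to 412 bases before its start. Of 243 tested genes with a CArG box in the window, 23 (9.47%) were higher and 24 (9.88%) lower with PDGF. EGR2, FOS and FOSB, whose values were known before the search, are themselves among the 23. Of all tested genes, 7.61% were higher and 10.7% lower. The median log2 fold change was 0.05 for genes with a box and 0.02 for all tested genes, and the difference was not tested. These matches are descriptions of letters in a window and say nothing of binding in these cells.

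The SSC PDGF+ libraries held more EGR2, FOSB and FOS messenger RNA than the SSC PDGF- libraries. EGR2 was 5.52-fold higher, FOSB 7.72-fold and FOS 2.37-fold, and none of the 3 genes overlapped between groups. JUNB, JUND, FOSL1 and FOSL2 overlapped between groups and were not called. Values are CPM (counts scaled to a common library size) with library sizes scaled by TMM, tests are edgeR's two-sided quasi-likelihood test over 11539 genes with Benjamini-Hochberg adjustment, and a gene was called at an adjusted p under 0.05. The members called were 3 of 7 higher and 0 of 7 lower (0 of 7 also at an unadjusted p under 0.05, by DESeq2 and by limma-voom), with a median log2 fold change of 0.43 over the 7. Of all tested genes, 18.3% were called, 7.61% higher and 10.7% lower, with a median log2 fold change of 0.02. CPM did not overlap between groups for 37.6% of tested genes, 18.2% higher and 19.3% lower. DESeq2 and limma-voom called EGR2, FOSB and FOS as well, where 10.2% and 7.61% of tested genes were called higher and 13.4% and 10.4% lower.

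**Figure D1:**
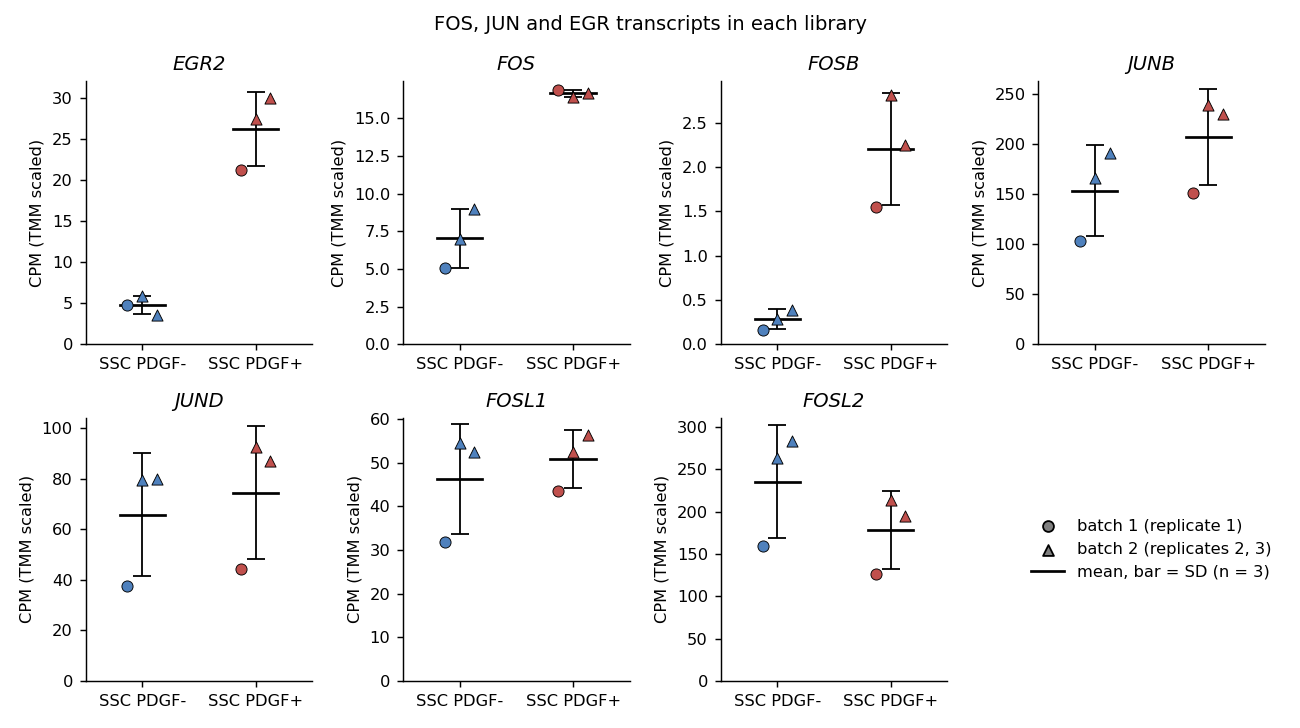
CPM of the 7 members in each library, on an axis of its own per gene; circles are batch 1, triangles are batch 2, and the bar is the mean ± SD of 3 libraries. EGR2, FOS and FOSB do not overlap between SSC PDGF+ and SSC PDGF-. In JUNB, JUND, FOSL1, FOSL2 and also FOSB the batch 1 library lies below both batch 2 libraries of its group. The same holds for FOS without PDGF and for EGR2 with PDGF.

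EGR2 (Krox20; chr9:75154129-75158502, plus strand) encodes a zinc finger factor best known from hindbrain patterning and Schwann cell myelination, and it is an early target of ERK signalling. Its level was 21.3, 27.5 and 30.1 CPM in SSC PDGF+ replicates 1, 2 and 3, and 4.76, 5.84 and 3.63 CPM in SSC PDGF- replicates 1, 2 and 3. Every PDGF+ library lay above every PDGF- library, and the lowest of the former stood far above the highest of the latter. The means were 26.3 ± 4.51 and 4.74 ± 1.11 CPM (SD, n = 3 each), a log2 fold change of 2.46 (SE 0.24, edgeR adjusted p = 0.000512). Of all tested genes, 0.555% had a higher fold change. Leaving out each library in turn kept the log2 fold change between 2.31 and 2.64, with edgeR adjusted p-values up to 0.00364.

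FOSB (chr19:45527685-45534869, plus strand) had the highest fold change of the 7 members and the lowest level. Its raw counts were 23, 36 and 30 in SSC PDGF+ replicates 1, 2 and 3, against 2, 3 and 4 in SSC PDGF- replicates 1, 2 and 3. The corresponding levels were 1.55, 2.82 and 2.25 CPM with PDGF and 0.164, 0.287 and 0.392 CPM without. FOSB was thus near the limit of detection in the controls, and every library with PDGF lay above it. The means were 2.21 ± 0.633 and 0.281 ± 0.114 CPM, a log2 fold change of 2.95 (SE 0.50, edgeR adjusted p = 0.00566). The 89 counts with PDGF and 9 without gave a CPM ratio of 7.93, with an exact binomial 95% interval of 4.0 to 17.9, for counting error alone. Of all tested genes, 0.355% had a higher fold change.

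FOS (chr7:137394931-137397381, plus strand), the founding member of its family, was nearly constant with PDGF, at 16.9, 16.4 and 16.7 CPM in replicates 1, 2 and 3. Without PDGF it was 5.09, 6.99 and 9.01 CPM in replicates 1, 2 and 3, so that the spread of FOS came mostly from the controls. The means were 16.7 ± 0.228 and 7.03 ± 1.96 CPM, a log2 fold change of 1.25 (SE 0.23, edgeR adjusted p = 0.00879), and 2.57% of tested genes had a higher fold change. Where replicates 2 and 3 of each group were summed and counted as 1 library, the log2 fold change of FOS was 1.36 and its edgeR adjusted p 0.0633, above the threshold of 0.05. In that fit EGR2 and FOSB stayed under the threshold, at adjusted p = 0.0114 and 0.0424.

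JUNB (chr19:12369848-12371689, plus strand), a JUN protein that in many cells restrains growth and is itself an immediate early gene, was the most abundant member. It was found at 152, 239 and 230 CPM in SSC PDGF+ replicates 1, 2 and 3, and at 103, 166 and 192 CPM in SSC PDGF- replicates 1, 2 and 3. Within each replicate number the library with PDGF was higher, yet PDGF+ replicate 1 lay below PDGF- replicates 2 and 3. The means were 207 ± 48.3 and 154 ± 45.8 CPM, a log2 fold change of 0.43 (SE 0.26, edgeR adjusted p = 0.286). A blocked fit, in which the replicate number was a term so that each library was set against its numbered partner, put the log2 fold change at 0.45 (SE 0.06, adjusted p = 8.43e-07). In that fit 60.1% of tested genes were called, 31.1% higher and 29.0% lower, so a call there says little by itself.

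JUND (chr19:17816964-17818877, minus strand), the JUN protein that most cells express without stimulation, was 44.2, 92.5 and 87.1 CPM in SSC PDGF+ replicates 1, 2 and 3. It was 37.8, 79.7 and 80.0 CPM in SSC PDGF- replicates 1, 2 and 3. Batch separated these libraries far more than PDGF did. The log2 fold change was 0.18 (SE 0.35, edgeR adjusted p = 0.756), and without SSC PDGF- replicate 1 its sign turned, to -0.11. With the block it was 0.19 (SE 0.07, adjusted p = 0.022), a call that was lost in batch 2 alone, at a log2 fold change of 0.15 and an adjusted p of 0.1, and by DESeq2 with the block (adjusted p = 0.102). In batch 2 alone 52.8% of tested genes were called, 26.2% higher and 26.6% lower, among them JUNB and FOSL2.

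FOSL2 (chr13:80534960-80556218, minus strand) was the only one of the 7 with a lower mean level with PDGF. It was 127, 214 and 195 CPM in SSC PDGF+ replicates 1, 2 and 3, and 159, 264 and 284 CPM in SSC PDGF- replicates 1, 2 and 3. Each library with PDGF lay below its numbered partner, though PDGF- replicate 1 lay below PDGF+ replicates 2 and 3. The means were 179 ± 45.6 and 236 ± 66.8 CPM, a log2 fold change of -0.40 (SE 0.26, edgeR adjusted p = 0.328). With the replicate block it was -0.39 (SE 0.05, adjusted p = 1.78e-06).

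FOSL1 (chr14:8655281-8664961, plus strand), a late-acting FOS relative that is high in many invasive cells, was 43.4, 52.4 and 56.4 CPM in SSC PDGF+ replicates 1, 2 and 3. It was 31.8, 54.6 and 52.5 CPM in SSC PDGF- replicates 1, 2 and 3. The batch 1 control was the low value, and the batch 2 libraries of both groups interleaved. The log2 fold change was 0.13 (SE 0.23, edgeR adjusted p = 0.719). It turned to -0.09 without SSC PDGF- replicate 1, and with the block it was 0.16 (adjusted p = 0.142). None of the 7 members overlaps another annotated gene, and no other gene had the same counts in all 6 libraries.

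GC content bears on the size of these values. Exons of the members held 53.4% (EGR2) to 70.2% (JUND) GC, and tested genes of similar GC content and length were on average lower with PDGF by an amount that a smooth curve through all tested genes estimates. This offset was -0.12 on the log2 scale for EGR2, -0.20 for FOSB, -0.55 for FOS, -0.49 for JUNB, -0.57 for JUND, -0.42 for FOSL1 and -0.23 for FOSL2. The FOS model holds only its coding sequence, so the GC content and length behind its offset are those of a truncated transcript. With this offset and the replicate block, the log2 fold change was 2.57 for EGR2, 3.13 for FOSB, 1.82 for FOS, 0.93 for JUNB and 0.76 for JUND. FOSL1 became a call in that fit, at 0.58 (SE 0.09, edgeR adjusted p = 1.12e-05), while FOSL2 moved to -0.16 (adjusted p = 0.0106). The signs of the 7 members were the same in both blocked fits. Over all tested genes the block alone called 3587 higher and 3347 lower, and the block with the offset 4123 higher and 2618 lower, 58.4% in all.

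**Figure D2:**
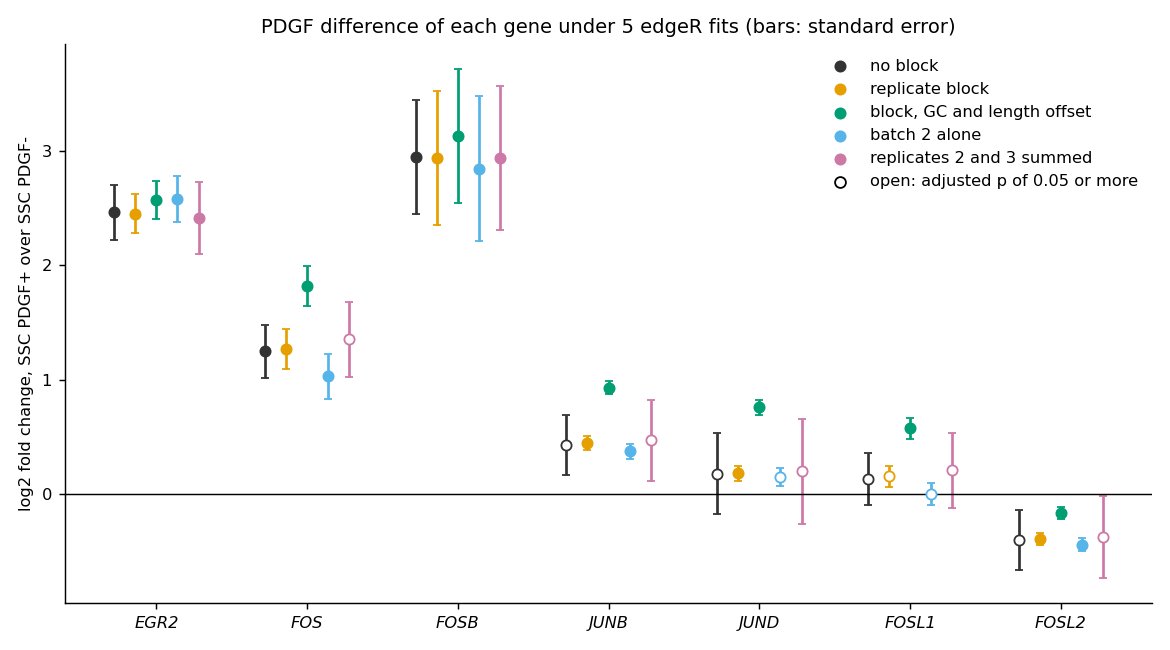
Log2 fold change (SSC PDGF+ over SSC PDGF-) of each member in 5 edgeR fits, with bars for the standard error; open points have an adjusted p of 0.05 or more. EGR2, FOSB and FOS are filled in every fit shown except FOS with replicates 2 and 3 summed, whereas JUNB, JUND and FOSL2 are filled with the replicate block and JUNB and FOSL2 also in batch 2 alone. With the block and the GC and length offset every member is filled, and FOSL1 is filled only there.

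The members were also compared between batches. A fit with PDGF and batch as terms was a test chosen after the values were seen. In it 4 of 7 members were called between batches, near the 57.2% of all tested genes called in either direction. All 4 were higher in batch 2 than in batch 1. The share of all tested genes higher in batch 2 was not counted. These were JUND (2.07-fold, edgeR adjusted p = 2.36e-11), FOSL2 (1.66-fold, adjusted p = 8.17e-11), JUNB (1.64-fold, adjusted p = 7.98e-10) and FOSL1 (1.44-fold, adjusted p = 5.16e-05). The 3 members that rose with PDGF were not called between batches, at 1.17-fold for FOS (adjusted p = 0.297), 1.23-fold for EGR2 (adjusted p = 0.14) and 1.69-fold for FOSB (adjusted p = 0.246), where the FOSB value rests on few counts. Within batch 1, with 1 library a group, the log2 difference between PDGF+ and PDGF- was 2.16 for EGR2, 3.24 for FOSB and 1.73 for FOS, and within batch 2 it was 2.60, 2.90 and 1.05 in the same order. The corresponding values for the others, batch 1 then batch 2, were 0.56 and 0.39 for JUNB, 0.23 and 0.17 for JUND, 0.45 and 0.02 for FOSL1, and -0.33 and -0.42 for FOSL2. The sign was thus the same in both batches for each of the 7, though for FOSL1 in batch 2 it rests on a difference of 0.02. How many of all tested genes kept their sign was not counted. The PDGF difference itself was not called as differing between batches for any member. FOSL1 had the lowest unadjusted p of the interaction at 0.0218 (adjusted p = 0.968). Over all tested genes the interaction was called for 0.0%, with 4.56% at an unadjusted p under 0.05.

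**Figure D3:**
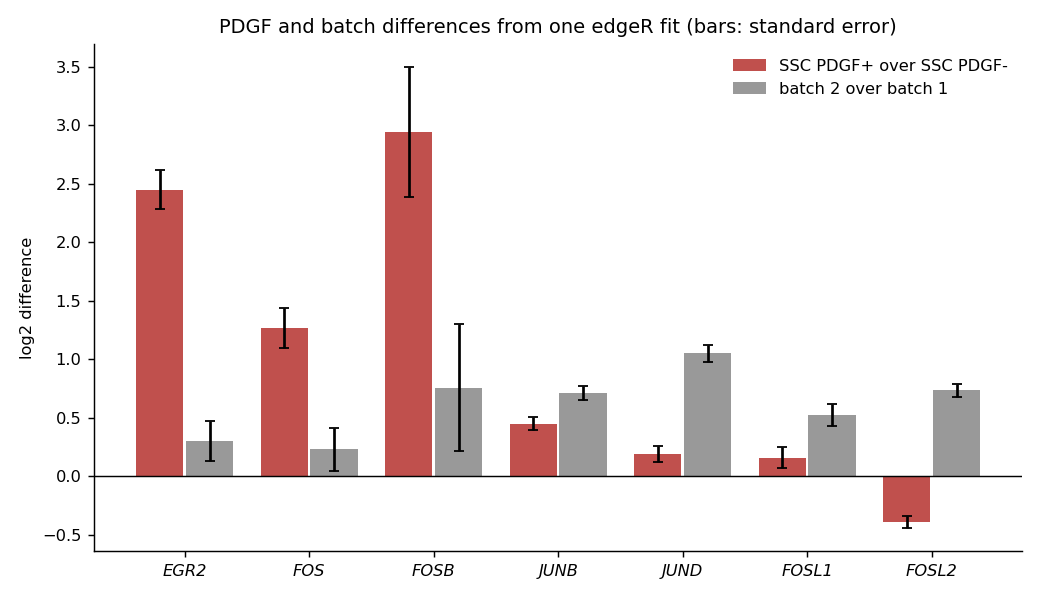
Log2 differences of each member between SSC PDGF+ and SSC PDGF- and between batch 2 and batch 1, from a single edgeR fit with both terms; bars are standard errors. EGR2, FOSB and FOS have the larger PDGF difference, and JUND, FOSL2, JUNB and FOSL1 the larger batch difference.

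Per kilobase of exon, JUNB was the highest member in both groups, at 112 with PDGF and 83.3 CPM per kb without. With PDGF it was followed by FOSL2 (45.3), JUND (39.0), FOSL1 (29.3), FOS (14.6), EGR2 (7.66) and FOSB (0.400 CPM per kb). Without PDGF the order was the same, with FOSL2 at 59.8, JUND at 34.4, FOSL1 at 26.8, FOS at 6.15, EGR2 at 1.39 and FOSB at 0.0509 CPM per kb. The FOS model holds only its coding sequence, so its per-kilobase level was divided by a shorter length than those of the others. The means of FOSL2 and JUND with PDGF, and of JUND and FOSL1 in both groups, differed by less than their spread over libraries. Within libraries, however, FOSL2 was above JUND in SSC PDGF+ replicates 1, 2 and 3 (32.2 against 23.1, 54.2 against 48.3 and 49.5 against 45.5 CPM per kb). JUND was above FOSL1 in every library except SSC PDGF+ replicate 1 (23.1 against 25.1 CPM per kb).

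The make-up of FOS family transcripts differed between groups. FOS made up 20.4%, 14.5% and 15.0% of the family's CPM per kb in SSC PDGF+ replicates 1, 2 and 3, and 7.04%, 5.84% and 7.15% in SSC PDGF- replicates 1, 2 and 3. FOSL2 made up 44.5%, 54.5% and 51.0% with PDGF and 63.9%, 64.0% and 65.3% without. Neither share overlapped between groups, nor did that of FOSB or that of FOSL1 (30.5% to 34.7% with PDGF, 27.5% to 30.1% without). The shares of a library add up to its whole, so they are not separate results. In CPM, 37.6% of all tested genes did not overlap. FOSB made up 0.441% ± 0.0648 of the family with PDGF and 0.0537% ± 0.00933 without, and FOSL1 was 32.9% ± 2.17 with PDGF and 28.9% ± 1.32 without (SD, n = 3). Shares within a library do not depend on its scaling, and JUNB and FOSL2 differed between batches by like amounts. The log2 ratio of JUNB to FOSL2 in CPM was 0.26, 0.17 and 0.24 in SSC PDGF+ replicates 1, 2 and 3, and -0.63, -0.67 and -0.57 in SSC PDGF- replicates 1, 2 and 3. This pair was chosen after its values were seen, so the ratio is a description. JUNB made up 74.8% ± 2.9 of JUNB and JUND together per kb with PDGF and 71.2% ± 2.71 without.

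**Figure D4:**
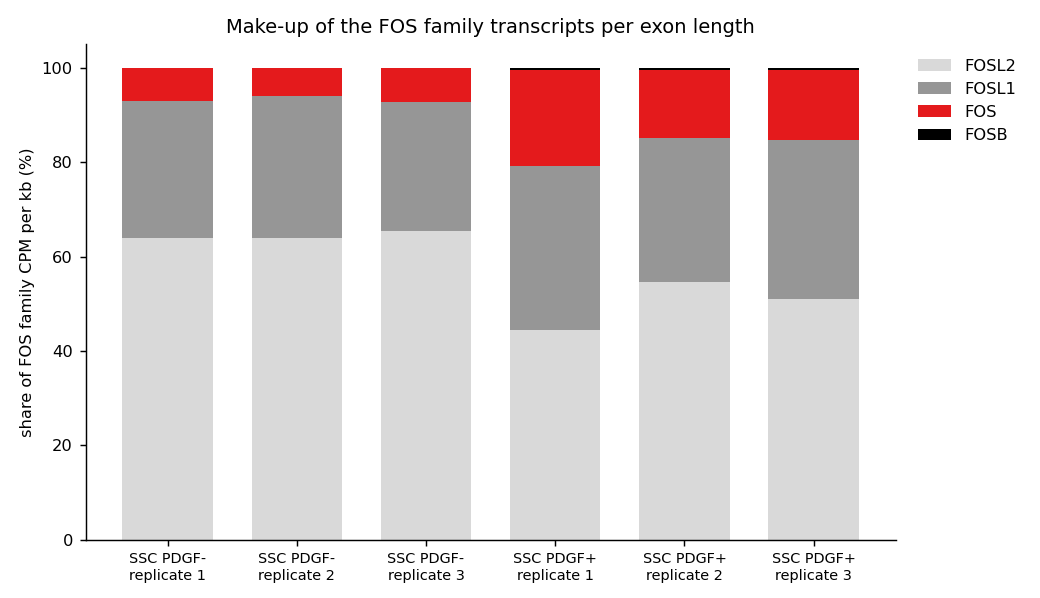
Share of each FOS family member in the family's summed CPM per kb of exon, by library. FOS takes 14.5% to 20.4% with PDGF and 5.84% to 7.15% without, and FOSL2 takes the lower share with PDGF in every library.

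Genes around these members were counted by list, beside the 7.61% higher and 10.7% lower of all tested genes. Of 23 tested kinases and factors of the ERK, JNK, p38 and CREB routes, 3 were higher and 2 lower (median log2 fold change 0.04), and with the block 9 were higher and 7 lower. The kinase MAP2K1 (MEK1) rose, with a log2 fold change of 0.76 (adjusted p = 0.00481 by edgeR), and so did RPS6KA3 (RSK2), which acts on CREB, with 1.21 (adjusted p = 0.00412). RPS6KA2 (RSK3) and MAPK10 (JNK3), both with few counts, fell by 2.43 and 1.43 (adjusted p = 0.0157 and 0.0186). Leaving out SSC PDGF- replicate 2 or 3 ended the call of RPS6KA2 (adjusted p = 0.0546 and 0.0633). For MAPK10 these were SSC PDGF+ replicates 2 and 3 and SSC PDGF- replicate 2 (adjusted p = 0.0743, 0.0807 and 0.0714), and with replicates 2 and 3 summed none of these 4 was called. Serum response factor was 103 ± 16.5 CPM with PDGF and 97.9 ± 12.98 CPM without, and of 6 tested genes of SRF and its cofactors 0 were called (median 0.22), with 1 at an unadjusted p under 0.05. Limma-voom also called 0, DESeq2 called 1 higher, and the blocked fit called 2 higher and 1 lower. Of the relatives of the EGR genes and their NAB corepressors, 2 were tested and 0 called (0 at an unadjusted p under 0.05, by DESeq2 and by limma-voom), though the blocked fit called 1 lower, NAB1, and NAB2 was listed at 0.

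Among 10 tested bZIP factors that can pair with FOS or JUN proteins, 1 was higher and 4 lower with PDGF, with a median log2 fold change of 0.01. With the block 4 were higher and 4 lower. MAFF, a small MAF protein without an activation domain, was 125 ± 19.0 CPM with PDGF and 38.4 ± 8.51 CPM without, a log2 fold change of 1.70 (adjusted p = 0.00146 by edgeR). MAF, which carries an activation domain, fell by 2.41 (adjusted p = 0.00202). BATF, an AP-1 partner of lymphocytes, fell by 2.098 (adjusted p = 0.0175), a call lost with each of 4 libraries left out in turn (SSC PDGF+ replicates 1 and 2 and SSC PDGF- replicates 2 and 3, adjusted p = 0.052 to 0.0708).

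Of 26 tested immediate early genes outside the 3 families, 9 were higher and 4 lower (median log2 fold change 0.40), and with the block 16 were higher and 8 lower. LIF, a cytokine that the described medium also held, was 133 ± 17.3 CPM with PDGF and 10.8 ± 2.15 CPM without, a log2 fold change of 3.63 (adjusted p = 5.68e-05 by edgeR). PTGS2, the inducible cyclooxygenase, rose by 2.98 (adjusted p = 0.000409) and the orphan nuclear receptor NR4A2 by 2.20 (adjusted p = 0.000627). ZFP36L1, which speeds the decay of AU-rich messenger RNAs, was 360 ± 12.6 CPM with PDGF and 736 ± 14.6 CPM without, a fall of 1.03 (adjusted p = 0.000766). GADD45B, a stress sensor, fell by 0.98 (adjusted p = 0.00312), and the kinase SIK1 fell by 0.88 (adjusted p = 0.00929). GADD45B and SIK1 lost their calls with replicates 2 and 3 summed (adjusted p = 0.0854 and 0.138).

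Genes known as AP-1 targets were 5 higher and 2 lower of 20 tested (median log2 fold change 0.26), or 9 and 4 with the block. The interstitial collagenase MMP1 was 1283 ± 267 CPM with PDGF and 209 ± 48.9 CPM without, a log2 fold change of 2.62 (adjusted p = 0.000261 by edgeR). The gelatinase MMP9 rose by 1.92 (adjusted p = 0.00395) and the urokinase receptor PLAUR by 1.85 (adjusted p = 0.000144). The keratin KRT18 and the gap junction protein GJA1 fell by 1.61 and 1.17 (adjusted p = 0.00156 and 0.00352). Of 12 tested EGR1 targets 4 were higher and 2 lower (median 0.48), or 7 and 4 with the block. FLT1 rose by 4.38 and VEGFA by 3.02, with edgeR adjusted p-values of 0.000343 and 3.29e-05. ICAM1 fell by 1.24 (adjusted p = 0.00453) and was not called with replicates 2 and 3 summed (adjusted p = 0.0691). A target list names genes that these factors can act on in other cells, and which factor acted on them here was not tested.

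**Figure D5:**
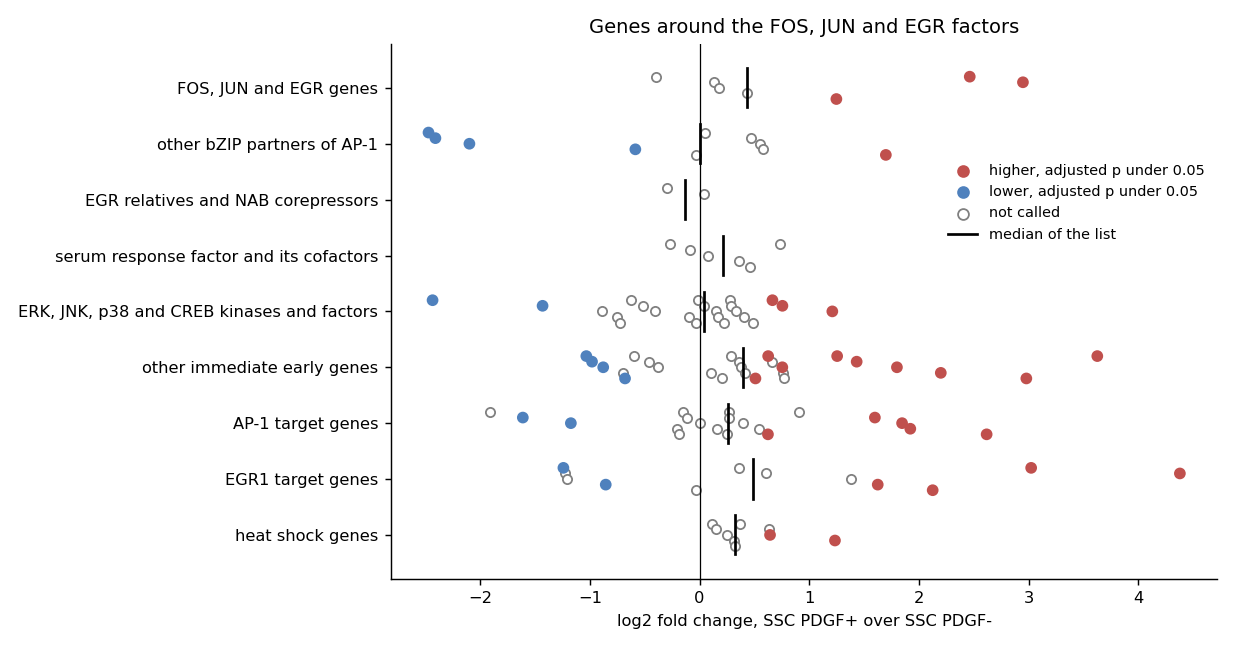
Log2 fold change of each tested gene by list, coloured by call at an adjusted p of 0.05, with a tick for the median of the list. Called genes lie on both sides of 0 in the bZIP partner, kinase, other immediate early, AP-1 target and EGR1 target lists, and heat shock genes all lie above 0.

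The genes whose profile over the 6 libraries was closest to a called member were found among 10519 genes, by the root mean square difference of centred log2(CPM + 1). For FOS these were ZDHHC14 (0.10) and SPRED3 (0.12), for FOSB AQP3 (0.11) and KCNE4 (0.11), and for EGR2 COL15A1 (0.15) and NES (0.16). The added 1 compresses FOSB, which lay under 1 CPM in the controls, so its neighbours have smaller fold changes than its own. As likeness to a member called higher fixes their direction, it is no result, and their log2 fold changes ran from 1.35 (KCNE4 and ZDHHC14) to 2.43 (NES).

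Total counts per library ran from 10593805 to 14102697, with the lowest PDGF+ total above the highest PDGF- total, at 13095467 and 11605908. Heat shock genes can rise with cell handling, as immediate early genes do. Of 9 tested, 2 were called higher (HSP90AB1 and HSPA4L), beside 7.61% of all tested genes. With the block 8 of 9 were higher, beside 31.1%. The other 7 were not called without the block, among them DNAJB1, HSPH1 and BAG3 (edgeR adjusted p = 0.248, 0.155 and 0.63). The sum of the list was 3643 to 4401 CPM with PDGF and 2923 to 3434 CPM without. HSPA4L lost its call without any of the libraries but SSC PDGF- replicate 1 (adjusted p up to 0.17), HSP90AB1 with replicates 2 and 3 summed (adjusted p = 0.109). Markers of undifferentiated spermatogonia summed to 473.3 to 518.9 CPM with PDGF and 434.7 to 536.8 CPM without, with UCHL1 the highest (263 and 185 CPM) and ID4 next. Of 7 tested, 1 was higher (UCHL1) and 3 lower (FGFR3, TSPAN33 and DDX4), with a median log2 fold change of -2.07, and with the block 2 were higher and 5 lower. Over the libraries with and without PDGF, GFRA1 had 5 and 18 counts, SALL4 1 and 20, and ZBTB16 1 and 9. The germ cell genes DDX4 and DAZL had 13 and 69, and 9 and 37, and NANOS2 was at 0. The sum came mostly from UCHL1, ID4 and ETV5, so the labelled cell type was hardly visible in these germ cell markers. The values of EGR2, FOSB and FOS therefore describe the cultures as a whole. Fibroblast markers summed to 14170 to 19520 CPM with PDGF, led by COL1A1, and to 17060 to 19290 CPM without, led by COL3A1. Of 9 tested, 2 were lower (COL3A1 and PDGFRA), and with the block 2 were higher and 6 lower. Spermatid markers summed to 109.1 to 152.6 CPM with PDGF, led by ODF2, and to 602.7 to 917.1 CPM without, led by TNP1, with 6 of 6 tested lower. Peritubular myoid markers, led by TAGLN, summed to 400.0 to 508.3 and 1015 to 1169 CPM, with 3 of 6 lower, and epithelial markers, led by PAX8, to 35.57 to 51.92 and 91.33 to 125.7 CPM, with 4 of 5 lower. Summed Sertoli markers, led by GATA4, were 114.1 to 150.7 and 99.87 to 148.2 CPM, Leydig markers, led by STAR and with CYP11A1 at 0, 265.6 to 333.2 and 232.3 to 269.4 CPM. Of 4 tested Leydig markers 1 was lower (IGF1, log2 fold change -1.55, edgeR adjusted p = 0.0139), and with the block 2 were higher and 1 lower. Endothelial markers were 12.17 to 16.81 and 11.17 to 16.28 CPM, macrophage markers, led by CD68 and with PTPRC at 0, 17.05 to 19.51 and 11.56 to 18.4 CPM, and T cell markers, with CD3E, CD3G and CD8A at 0, 0.5259 to 1.08 and 0.2874 to 0.8213 CPM. In such bulk libraries more cells of a type and more RNA per cell cannot be told apart, and the part of these shifts, of depth or of handling in the levels of EGR2, FOSB and FOS was not tested.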

How the data were processed

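RNA sequencing counts of 6 libraries of rhesus monkey SSCs were analysed, 3 SSC PDGF+ and 3 SSC PDGF-. The authors deposited expected counts per gene without normalization. Of the values deposited, 34 in 13 genes were not whole, and values were rounded; the planned test had assumed whole counts. The submitters' processing notes name fastp, HISAT2 2.1.0, SAMtools and featureCounts 2.0.1 and the builds Mmul_10 and Mmul_8.0.1, with no role for each. Of 2686 LOC identifiers in the table, 2682 are in the Mmul_10 annotation (RefSeq release 103), which gave positions, exon lengths, GC content and upstream sequence; 17389 genes matched by name. Whether counting used strand, and whether reads matching several genes were counted, is not given in the sources used here.

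Tests used edgeR 4.0.16 (R 4.3.3) with TMM, filterByExpr by group and the quasi-likelihood test, adjusted by Benjamini-Hochberg over 11539 genes. Standard errors were taken from the log2 fold change and F (its size over the root of F). With 3 libraries against 3 an exact permutation test cannot go below p = 0.1. Libraries of the same number share a batch by the labels, and replicates 2 and 3 share batch 2. Deviations from the group means correlated within a number with r = 0.81, 0.48 and 0.50 over 11539 genes for numbers 1, 2 and 3. Libraries of different numbers were not compared, so a shared batch could give these values. That replicates 2 and 3 pair by number was therefore assumed. A blocked fit, in which the replicate number was a term, with and without a loess offset for GC content and length (values for 11250 genes), was made beside the unblocked one. Also tried were size factors by RLE, by upper quartile or by library totals alone, 2 other filters, DESeq2 1.42.0, limma-voom (limma 3.58.1), batch as a term, batch 2 alone, replicates 2 and 3 summed, each library left out, and thresholds of 0.01 and 0.1; DESeq2 and limma-voom with the block were chosen after the data were seen. On simulated counts for SSC PDGF+ against SSC PDGF- (11415 genes), edgeR recovered 49.1% of 112 genes changed by 1 on the log2 scale. It recovered 94.3% of 88 genes changed by 2, with 10 false calls. The simulated libraries shared no batch, and far fewer genes were changed than were called in the data. Recovery and false calls in the data may therefore differ.

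The members and gene lists were chosen with earlier results of these data known. Named are the members, per list up to 3 called genes higher and 3 lower, by size of change (bZIP partners, EGR relatives and NAB, SRF and cofactors, kinases and CREB factors, other immediate early genes, AP-1 targets, EGR1 targets, heat shock genes), the most abundant marker and any marker at 0 for each cell type, and the 2 closest profiles of each called member. Outside this rule, after their values were seen, SRF, NAB1, DNAJB1, HSPH1, BAG3, GFRA1 and the other markers given beside a count or a group's lead are named. Some genes that the rule takes are not reported here. Python 3.11.15 with matplotlib 3.10.9, pandas 2.3.3 and scipy 1.17.1 served for tables and plots.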

Additional observations from a re-analysis of the deposited data

How the results depend on the processing

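EGR2 and FOSB kept their direction and their call in every alternative that gave a value, and FOS in all but the one that summed replicates 2 and 3 (1.36, edgeR adjusted p = 0.0633). FOSB has too few counts for a value where each library had to hold 10 counts or more. The calls of the other members depended on whether the replicate number or batch was a term. With the replicate block the log2 fold changes that became calls were 0.448 for JUNB, 0.185 for JUND and -0.392 for FOSL2, and with batch as a term 0.447, 0.186 and -0.392. With the replicate block and the GC and length offset they were 0.933 for JUNB, 0.759 for JUND, -0.16 for FOSL2 and 0.578 for FOSL1. With the block, DESeq2 gave 0.445 for JUNB and -0.396 for FOSL2, and limma-voom 0.442 and -0.395, with JUND at 0.182. In batch 2 alone JUNB (0.375) and FOSL2 (-0.44) were called. The members called higher accordingly went from 3 to 5 with the block, batch as a term or limma-voom with the block, and to 6 with the offset, and those called lower from 0 to 1 in these fits, in DESeq2 with the block and in batch 2 alone. Leaving out each library in turn gave log2 fold changes of 2.31 to 2.64 for EGR2, 1.05 to 1.47 for FOS, 2.65 to 3.26 for FOSB, 0.20 to 0.63 for JUNB and -0.63 to -0.20 for FOSL2. It gave -0.11 to 0.46 for JUND and -0.09 to 0.27 for FOSL1, where the negative ends are without SSC PDGF- replicate 1. Over all genes the calls were 878 higher and 1230 lower, 3587 and 3347 with the block, 3604 and 3387 with batch as a term, 4123 and 2618 with the offset, 3041 and 3085 in batch 2 alone, 206 and 487 with replicates 2 and 3 summed, and 435 to 1284 and 726 to 1726 with a library left out. DESeq2 with the block gave 2955 and 2883, limma-voom with the block 3583 and 3385, and thresholds of 0.01 and 0.1 gave 358 and 544, and 1419 and 1693. FOSB is the member that depth limits most, with 9 counts over the controls.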
